A study of Mus musculus with 11 samples.

Results

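The genes described here are 10 genes of the p53 pathway, followed in mouse neural progenitor cells (NPCs) and in the embryonic cortex of WT and Syncrip cKO animals at E14.5. They were taken by symbol from a fixed list: Trp53, which encodes p53, and 9 genes that p53 switches on, Mdm2, Ccng1, Cdkn1a, Bax, Bbc3, Pmaip1, Phlda3, Trp53inp1 and Sesn2. All 10 were found among the 48440 genes of the RNA-seq count table and among the 32285 genes of both scRNA-seq matrices. The question for each was whether its transcript level differed between genotypes, since a rise of these genes together is the usual sign of an active p53.

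The transcription factor p53 is held low in unstressed cells by Mdm2, a ubiquitin ligase that marks it for degradation. After DNA damage, ribosome defects or other stress the protein is stabilised and switches on genes of cell cycle arrest (Cdkn1a), mitochondrial apoptosis (Bax, Bbc3, Pmaip1), stress resistance (Sesn2, Trp53inp1) and its own restraint (Mdm2, Ccng1). In the developing cortex, p53 is best known for the loss of progenitors that follows mitotic or DNA repair defects. Since p53 is controlled mostly as a protein, the level of Trp53 RNA is a poor guide to its activity, and its target genes are the usual transcript readout.

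Syncrip encodes an RNA-binding protein, and the study asked what it does in NPCs and in the dorsal cortex. The cKO animals carried the floxed Syncrip allele on both chromosomes and the Cre transgene Emx1-Cre, which acts in progenitors of the dorsal telencephalon, on a C57BL/6 background; the labels call the controls WT and give no allele or transgene for them. For RNA-seq there were 3 WT and 3 cKO cultures of NPCs taken at E14.5, and for scRNA-seq the dorsal cortex of 1 WT and 1 cKO embryo of the same age, carried by the same mother. The labels do not say whether the 3 cultures of a genotype came from separate embryos, so p-values measure only the spread between these cultures, which may be technical in part, although sex differed within each genotype.

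Totals ran from 16962903 to 22708400 counts per culture and were 100172392 UMIs in the WT and 111313526 UMIs in the cKO cortex library. The targeted gene did not check the labels: Syncrip stood at 77.9, 79.8 and 79.9 CPM (counts scaled to the size of the library) in the WT and at 90.3, 88.7 and 81.5 CPM in the cKO cultures, but the count covers the whole gene and not the deleted exons alone. In the cortex, Syncrip read from the 3′ end stood at 319 (WT) and 328 CPM (cKO) in cells like apical progenitors, and at 307.5 (WT) and 266 CPM (cKO) in cells like those of the ganglionic eminence, which likewise says nothing of the deleted exons. Sex differed among the cultures: 2 WT cultures and 1 cKO culture had 5903 to 9232 counts on Y-linked genes, and the other 3 had at most 1. In the cortex the WT library had 22085 Y-linked UMIs and the cKO library 211, with 2 and 105503 Xist UMIs, so that sex and genotype cannot be told apart there. The cultures held 9 of 10 markers of apical progenitors above the count filter, among them Pax6 at 58.8 to 79.2 CPM.

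Matches to the p53 binding consensus around the gene starts are shown first, because they are the sequence through which a direct target would be recognised. The consensus is a pair of adjacent 10-base parts, and a match was a stretch of 20 bases with at most 1 mismatch within 5000 bases on either side of the RefSeq gene start. It reads the same on both strands. Such a match was found for 3 of the 10 genes, Mdm2, Ccng1 and Cdkn1a, and for 674 of 21774 protein-coding genes (3.1%). The 4 stretches follow from the mouse assembly GRCm38, on the strand of the gene, with the central 4 bases of each part in capitals.

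Cdkn1a, chr17:29090928-29090947, plus strand, outside the gene, centre 41 bases before its start: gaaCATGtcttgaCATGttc

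Ccng1, chr11:40755462-40755481, minus strand, outside the gene, centre 163 bases before its start: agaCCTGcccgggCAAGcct

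Ccng1, chr11:40754936-40754955, minus strand, in an intron, centre 363 bases after the gene start: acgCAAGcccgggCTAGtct

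Mdm2, chr10:117711670-117711689, minus strand, outside the gene, centre 922 bases before its start: gggCAATtccgggCAAGtcc

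Each of the 4 differs from the consensus at 1 base. A match is a description of these letters and not a bound site, and the absence of a match in the other 7 genes covers only this window and this limit. Of the 3 genes with a match, 2 were lower in the cKO cultures and 1 was slightly higher, as given next.

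In the cultured NPCs, 7 of the 10 genes were lower in cKO, 2 were slightly higher and 1 did not pass the test. Of the 9 targets only Mdm2 was called higher. Genotypes were compared with the edgeR quasi-likelihood test over 14432 genes, and a gene was called at a Benjamini-Hochberg adjusted p below 0.05. Over all genes tested, 39.5% were called, 19.7% as higher and 19.8% as lower, against 2 of 10 and 7 of 10 here. The median log2 fold change of the 10 genes was -0.43 and that of all genes 0.00. Summed over the 10 genes, the level was 1074 to 1164 CPM in the WT cultures and 749.9 to 787 CPM in the cKO cultures. In 7 of the 10 genes the 3 cultures of one genotype did not overlap those of the other, 5 of them with cKO below WT; over all genes tested these shares were 50.4% and 24.7%. CPM of the cultures are scaled by TMM, whereas those of the cortex are not. Culture values follow in the order of cultures 1 to 3, and fold changes are log2 of cKO over WT with their standard error (SE). In such bulk RNA, fewer cells that express a gene and less RNA per cell cannot be told apart.

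**Figure D1:**
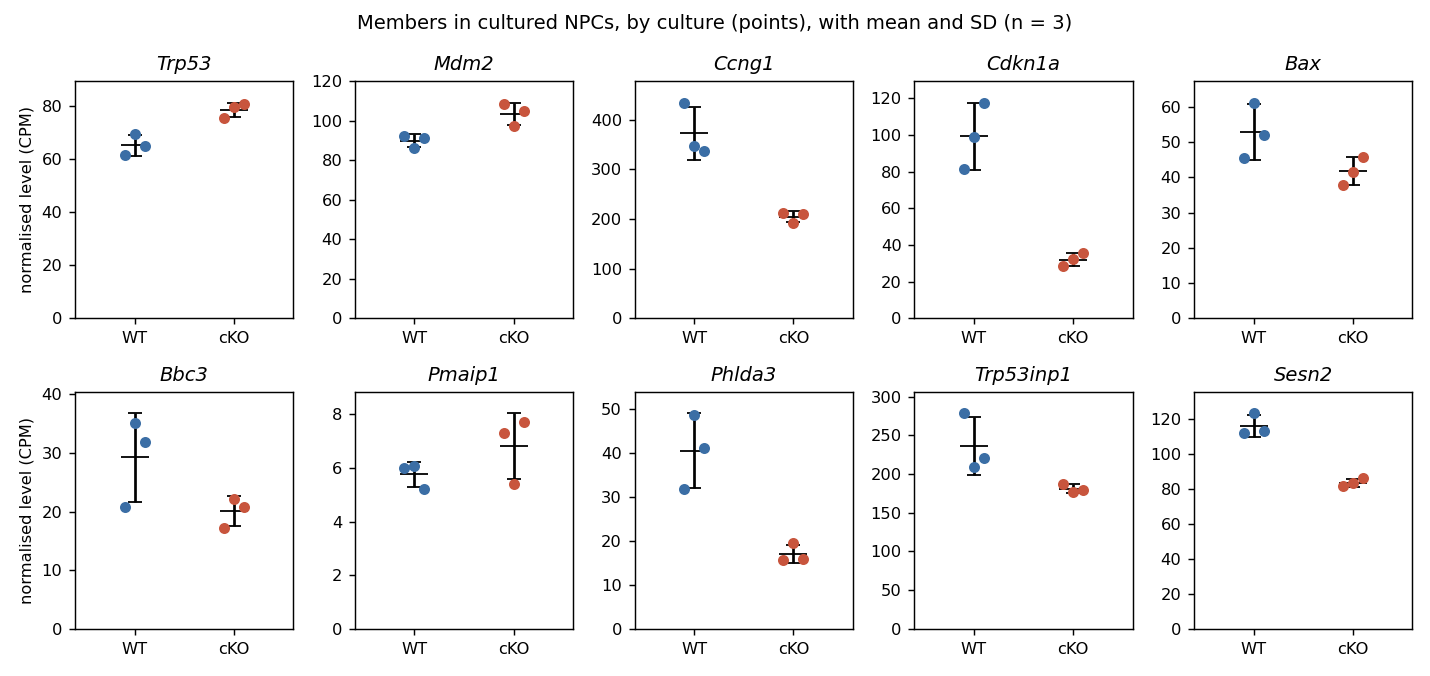
Level of each of the 10 genes in CPM (vertical axis, from 0) in the 3 WT and 3 cKO cultures, each point a culture, with the mean and SD. The cKO cultures of Cdkn1a sit between 28.4 and 35.6 CPM and those of Phlda3 between 15.7 and 19.4 CPM, below every WT culture, while those of Trp53 sit between 75.5 and 80.8 CPM, above every WT culture.

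Trp53 itself (chr11:69580359-69591873, mm10) was slightly higher without Syncrip. WT cultures had 61.6, 69.5 and 64.8 CPM, and cKO cultures 75.5, 79.5 and 80.8 CPM. All cKO cultures lay above all WT cultures, and the difference was 0.27 ± 0.08 (SE, n = 3 cultures per genotype, edgeR adjusted p = 0.0181). The call was lost when cKO culture 2 or 3 was left out, with an edgeR adjusted p of up to 0.0947.

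Of the 2 genes that restrain p53, Mdm2 and Ccng1 differed in opposite directions. Mdm2 (chr10:117688888-117710758), the ubiquitin ligase, had 92.4, 86.3 and 91.1 CPM in WT and 108, 97.6 and 105 CPM in cKO. The groups did not overlap and the difference was 0.21 ± 0.07 (SE, edgeR adjusted p = 0.0398), the weakest call among the 9. It was lost when any culture other than WT culture 1 was left out (edgeR adjusted p up to 0.196), with DESeq2 and without the filter on low counts.

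Ccng1 (chr11:40748552-40755311), cyclin G1, a target that acts on Mdm2 through a phosphatase, had 434, 348 and 337 CPM in WT and 212, 193 and 209.8 CPM in cKO. It fell in every cKO culture below every WT culture, by 0.87 ± 0.10 on the log2 scale (SE, edgeR adjusted p = 1.44e-05). Leaving out each culture in turn gave -0.94 to -0.75. Per kb of exon it was the most abundant of the 10 genes, at 106.2 CPM per kb in WT and 58.3 CPM per kb in cKO.

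Cdkn1a (chr17:29090979-29100722) changed most of the 10 genes. It encodes p21, the inhibitor of cyclin-dependent kinases through which p53 halts the cycle, and it is the gene most often read as a sign of p53 activity. WT cultures stood at 81.4, 98.6 and 118 CPM, whereas cKO cultures stood at 28.4, 32.0 and 35.6 CPM. The highest cKO culture lay well below the lowest WT culture, and the mean was 3.1-fold lower in cKO (log2 -1.63 ± 0.13, SE, edgeR adjusted p = 4.76e-07). Its fold change ranked at percentile 1.65 of all genes tested, and leaving out each culture gave -1.76 to -1.49.

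Genes of the G2/M phase of the cell cycle moved with the genotype in the other direction. All 12 of a list of 12 rose in cKO, with a median log2 fold change of 1.07, and their summed level was 202 to 259 CPM in WT and 368 to 536 CPM in cKO. Cdk1, the kinase that drives entry into mitosis, rose from 12.2, 10.5 and 9.15 CPM to 22.5, 28.2 and 29.8 CPM (1.34 ± 0.14, SE, edgeR adjusted p = 6.90e-06). What the cycle genes have to do with Cdkn1a was not tested.

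Among the genes of mitochondrial apoptosis, Bax and Bbc3 were lower in cKO with overlapping cultures, and Pmaip1 did not pass the test. Bax (chr7:45461697-45466898), which opens the outer mitochondrial membrane, had 45.4, 61.3 and 52.0 CPM in WT and 37.9, 41.5 and 45.9 CPM in cKO. The groups overlapped, since the highest cKO culture was above the lowest WT culture, and the difference of -0.34 ± 0.12 (SE, edgeR adjusted p = 0.0340) was lost without WT culture 2, cKO culture 1 or cKO culture 2, with an edgeR adjusted p of up to 0.15. Of its span, 17.6% is shared with another annotated gene.

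Bbc3 (chr7:16308393-16318205), which encodes the BH3-only protein Puma, had 20.8, 35.1 and 31.8 CPM in WT and 17.3, 22.1 and 20.8 CPM in cKO. WT culture 1 stood at the level of the cKO cultures, so the groups overlapped. The difference was -0.54 ± 0.16 (SE, edgeR adjusted p = 0.0183), and the call was lost without WT culture 2, WT culture 3 or cKO culture 1 (edgeR adjusted p up to 0.108).

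Pmaip1, which encodes the BH3-only protein Noxa, was the least abundant of the 10 genes per kb of exon, at 2.11 CPM per kb in WT and 2.49 CPM per kb in cKO. It had 5.99, 6.07 and 5.22 CPM in WT and 7.31, 5.42 and 7.71 CPM in cKO. The groups overlapped and the difference of 0.25 ± 0.18 did not pass (SE, edgeR adjusted p = 0.292).

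Phlda3 (chr1:135766119-135769136), a target that blocks the survival kinase Akt, fell nearly as far as Cdkn1a. It had 31.8, 48.7 and 41.0 CPM in WT and 15.7, 19.4 and 15.8 CPM in cKO. The groups were well apart, at a mean 2.39-fold lower in cKO (log2 -1.26 ± 0.14, SE, edgeR adjusted p = 1.53e-05), and leaving out each culture gave -1.41 to -1.12.

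The stress genes Trp53inp1 and Sesn2 were lower in cKO by a smaller step. Trp53inp1 (chr4:11156431-11174379), which promotes p53 phosphorylation and autophagy, had 278, 209 and 220.5 CPM in WT and 188, 176 and 179 CPM in cKO. WT culture 1 was the highest by far, the groups did not overlap, and the difference was -0.38 ± 0.10 (SE, edgeR adjusted p = 0.00787). Without WT culture 1 or any other single culture the call held, at -0.48 to -0.25.

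Sesn2 (chr4:132492032-132510501), a sestrin that restrains mTORC1 under stress, had 112, 123 and 113 CPM in WT and 81.7, 83.3 and 86.2 CPM in cKO. The cultures of each genotype lay close together and did not overlap (-0.47 ± 0.07, SE, edgeR adjusted p = 0.000205). Of the Sesn2 span 33.0% is shared with the annotated gene Gm12981, and the counting of shared stretches is not given in the sources used here.

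**Figure D2:**
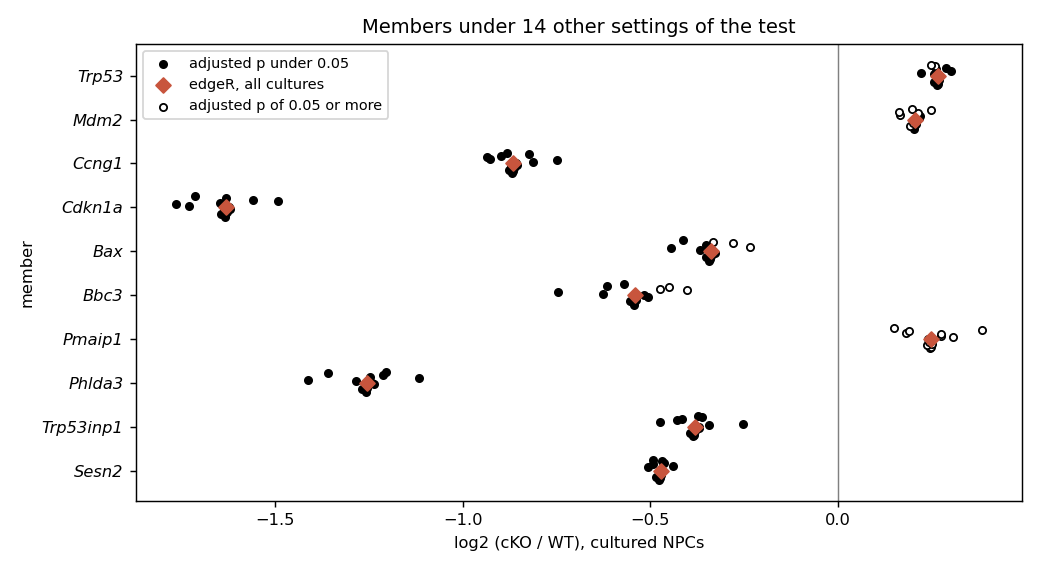
Log2 fold change of cKO over WT (horizontal axis) of each gene under edgeR with all cultures (diamond) and under 14 other settings (points), filled where the adjusted p was below 0.05. Every setting kept the direction of every gene; Cdkn1a, Phlda3, Ccng1, Sesn2 and Trp53inp1 stayed called throughout, while open points show where Trp53, Mdm2, Bax and Bbc3 lost the call.

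The wider pathway was read from lists of other genes. Of 29 further p53 targets, 10 fell, 3 rose and 16 did not pass, with a median of -0.20 and 22 of 29 values below 0. Those that fell most among genes without overlap were Gadd45a, a DNA damage gene, at 5.68 to 6.12 CPM in WT and 3.38 to 3.91 CPM in cKO, Eda2r, a receptor, at 50.8 to 58.4 and 29.0 to 35.5 CPM, and Tnfrsf10b, the TRAIL receptor, at 6.35 to 7.74 and 4.02 to 5.30 CPM. Their log2 fold changes were -0.71, -0.71 and -0.59 (edgeR adjusted p = 0.00619, 0.000142 and 0.0173). Plk3, Btg2 and Plk2 rose by 0.71, 0.32 and 0.24 on the log2 scale (edgeR adjusted p = 0.00483, 0.00564 and 0.0486). Btg2, which slows progenitor division, went from 78.9 to 90.3 CPM in WT to 97.9 to 107 CPM in cKO. The call of Plk2 was lost whichever culture was left out, that of Tnfrsf10b without WT culture 2 or cKO culture 1, and 36.4% of the Gadd45a span is shared with another gene.

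Genes that control p53 were called higher more often than lower. Of 19 on the list 17 were tested, of which 7 rose, 1 fell and 9 did not pass, with a median of 0.18. Chek1, a kinase of the DNA damage checkpoint, rose from 4.19 to 5.94 CPM in WT to 7.45 to 8.68 CPM in cKO (0.70, edgeR adjusted p = 0.00619). Atr, the kinase upstream of it, rose by 0.52 and Rpl5, a ribosomal protein that binds Mdm2, by 0.38 (edgeR adjusted p = 0.000469 and 0.00289). Trp53bp2, which directs p53 towards apoptosis genes, fell from 117 to 123 CPM to 69.2 to 75.4 CPM (-0.72, edgeR adjusted p = 4.69e-06). Trp63 and Trp73, the relatives of p53, were below the count filter.

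The genes that carry out apoptosis showed no common direction. In the BCL2 family 9 of 12 genes were tested, of which 1 rose and 3 fell. Bcl2, which protects cells, rose from 37.3 to 47.7 CPM to 59.4 to 72.1 CPM (0.58, edgeR adjusted p = 0.000951) with 20% of its span shared with other genes, while Bcl2l1, which also protects, fell by 0.43 (edgeR adjusted p = 0.00265). Hrk, a BH3-only gene of neurons, fell from 8.20 to 9.50 CPM to 1.93 to 3.03 CPM (-1.80, edgeR adjusted p = 1.05e-05), and the BH3-only gene Bad fell by 0.38 (edgeR adjusted p = 0.0287), a call lost in 4 of the 6 fits with a culture left out. Bak1 and Bcl2l2 were listed at 0 in every culture, and their levels are not known here: other genes cover all of the Bak1 span and 98.7% of the Bcl2l2 span, and 99.97% of the 10809 genes wholly under others were listed at 0. Among 13 caspases and genes of mitochondrial release, 2 rose, 2 fell and 9 did not pass: Casp2 rose by 0.49 and Diablo by 0.30 (edgeR adjusted p = 0.000722 and 0.0252). The call of Diablo, which shares 28.3% of its span, was lost in 3 of the fits with a culture left out.

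Sesn2 is also a target of the integrated stress response, which the factor Atf4 drives when translation is curbed. Of 15 genes of that response, 5 rose and 6 fell, with a median of -0.19. Atf3, Stc2 and Asns rose by 2.67, 1.19 and 0.39 on the log2 scale, and Nupr1, Slc7a11 and Phgdh fell by 1.56, 1.08 and 0.79 (edgeR adjusted p from 9.58e-06 to 0.0122). The call of Nupr1 was lost without WT culture 3 or cKO culture 1. The amino acid genes of the list did not share a direction: Asns rose from 35.0 to 37.6 CPM to 46.6 to 47.9 CPM, and Phgdh, of serine synthesis, fell from 443 to 541 CPM to 272 to 296 CPM (edgeR adjusted p = 0.00339 and 1.17e-05).

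**Figure D3:**
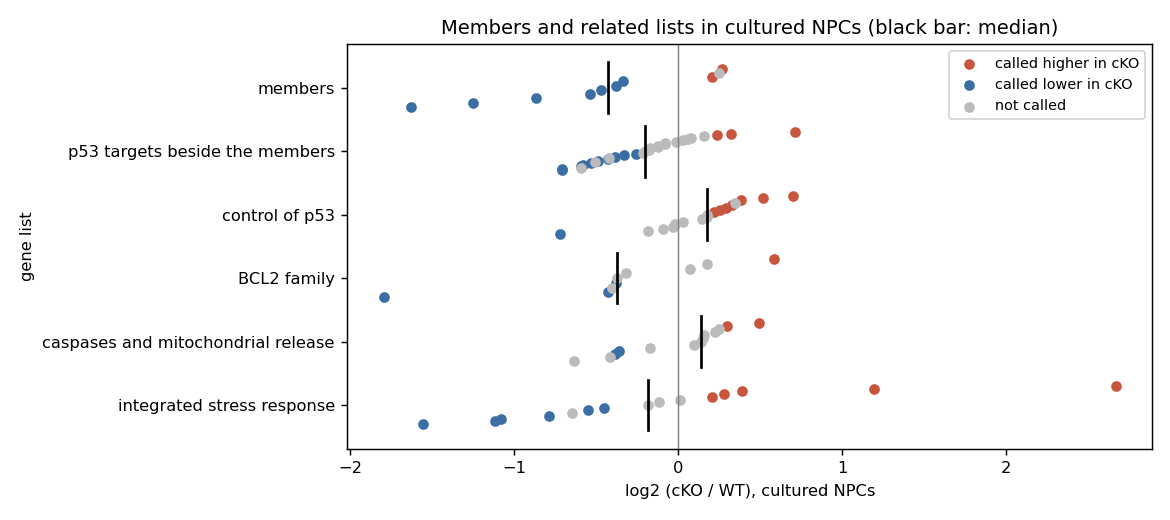
Log2 fold change of cKO over WT in the cultures (horizontal axis) for the 10 genes and for 5 lists of related genes, each point a gene, coloured by its call, with the median as a bar. The medians lie at -0.43 for the 10 genes, -0.20 for the other p53 targets, 0.18 for genes that control p53, -0.38 for the BCL2 family, 0.14 for caspases and -0.19 for the integrated stress response.

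Other gene groups moved with genotype in the same cultures, and their part in the results above was not tested. All 11 immediate early genes of a list of 11 rose, with a median of 3.70, from a sum of 156 to 188 CPM to 2095 to 2381 CPM. The largest rise among them was that of Egr3, at 0 to 0.0901 CPM in WT and 10.8 to 12.9 CPM in cKO. Of 9 neuronal genes tested 7 fell and none rose, with a median of -1.40, while their sum was 1987 to 2336 CPM and 2104 to 2239 CPM, with Tubb3 at 0. Of 7 genes of astrocytes 6 fell and none rose, with a median of -0.89 and a sum of 5140 to 5353 CPM in WT and 2956 to 3314 CPM in cKO, with Gfap at 0. Another gene covers all of the Gfap span, so its level is not known here. Of 7 genes of the oligodendrocyte lineage 2 rose and 2 fell, with a sum of 4009 to 4318 CPM in WT and 2983 to 3545 CPM in cKO, and Mbp, of myelin, fell by 1.5 on the log2 scale (edgeR adjusted p = 0.00939). Of 4 vascular genes 2 fell. Vascular genes summed to 44.0 to 51.5 CPM and 24.1 to 34.8 CPM, with Cdh5 and Cldn5 at 0. Microglial genes summed to 0.390 to 1.12 CPM and 1.32 to 2.27 CPM, with C1qa, C1qb, C1qc, P2ry12 and Tyrobp at 0. The 1 microglial gene tested, Cx3cr1, was higher. Another gene covers all of the P2ry12 span, so its level is not known here either. Genes of red blood cells were below the filter, at a sum of at most 0.630 CPM.

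In the cortex the members could be read by cell class, with 1 embryo per genotype and therefore no test between genotypes. After filtering, 8214 cells (median 11705 UMIs) were left of the WT and 9560 (median 11012.5 UMIs) of the cKO library, and 22 barcodes occurred in both libraries. Clusters were named only by their likeness to lists of marker genes: cells like apical progenitors (APs) by Pax6, Sox2, Vim and others, like intermediate progenitors (IPs) by Eomes and Neurog2, like migrating neurons by Neurod1 and Unc5d, like immature neurons by Neurod2 and Tbr1, and like cells of the ganglionic eminence (GE) by Dlx1 and Gad2. Class names below stand for such likeness, and 27.8% of WT and 24.1% of cKO cells stayed unnamed. Levels are CPM of the UMIs summed over a class, and a ratio is log2 of cKO over WT with an exact 95% interval that covers counting error only, neither differences between embryos nor the clumping of UMIs in single cells.

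In the AP-like cells, the class in which Emx1-Cre is known to act, 6 of the 10 genes had at least 200 UMIs over both libraries. The cells numbered 762 in WT (median 14085 UMIs) and 1096 in cKO (median 13830 UMIs). Of these 6 genes, 1 had an interval above 0 and 1 an interval below 0. Over 10308 genes with as many UMIs, 14.6% lay above 0 and 15.4% below. The sum of the 10 genes, most of it Bax and Trp53, was 409 CPM (WT) and 399 CPM (cKO).

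Trp53 stood at 108 and 104 CPM there, in WT and cKO in this order (-0.06, -0.16 to 0.05). Mdm2 had 61.5 and 54.2 CPM, a ratio of -0.18 (-0.32 to -0.04), which is below 0 while the cultures were higher in cKO. Bax, with the most UMIs of the 10, had 200.5 and 198.6 CPM (-0.01, -0.09 to 0.06). This interval does not reach the -0.34 of the cultures, which has its own SE of 0.12, and the difference between the experiments was not tested.

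The 3 genes that fell most in the cultures had intervals that included 0 in AP-like cells. Cdkn1a had 3.43 CPM (WT) and 3.58 CPM (cKO), from 42 and 65 UMIs (0.06, -0.52 to 0.66). Ccng1 had 7.68 and 8.27 CPM (0.11, -0.27 to 0.49) and Phlda3 9.40 and 10.2 CPM (0.12, -0.23 to 0.47). The intervals of Ccng1 and Phlda3 do not reach the log2 fold changes of the cultures, -0.87 and -1.26, but the difference between the experiments was not tested. Cdkn1a is not set against the cultures, since 18 of its 42 and 16 of its 65 UMIs came from 1 cell each.

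Trp53inp1 was the gene with an interval above 0 in AP-like cells, at 11.1 and 13.9 CPM (0.32, 0.02 to 0.63). Removing called doublets brought it to 0.25 with an interval that included 0. Bbc3 had 4.74 and 3.81 CPM (-0.32, -0.84 to 0.21), Sesn2 2.04 and 1.99 CPM (-0.04, -0.82 to 0.76), and Pmaip1 only 2 and 7 UMIs, too few for a comparison at this depth.

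**Figure D4:**
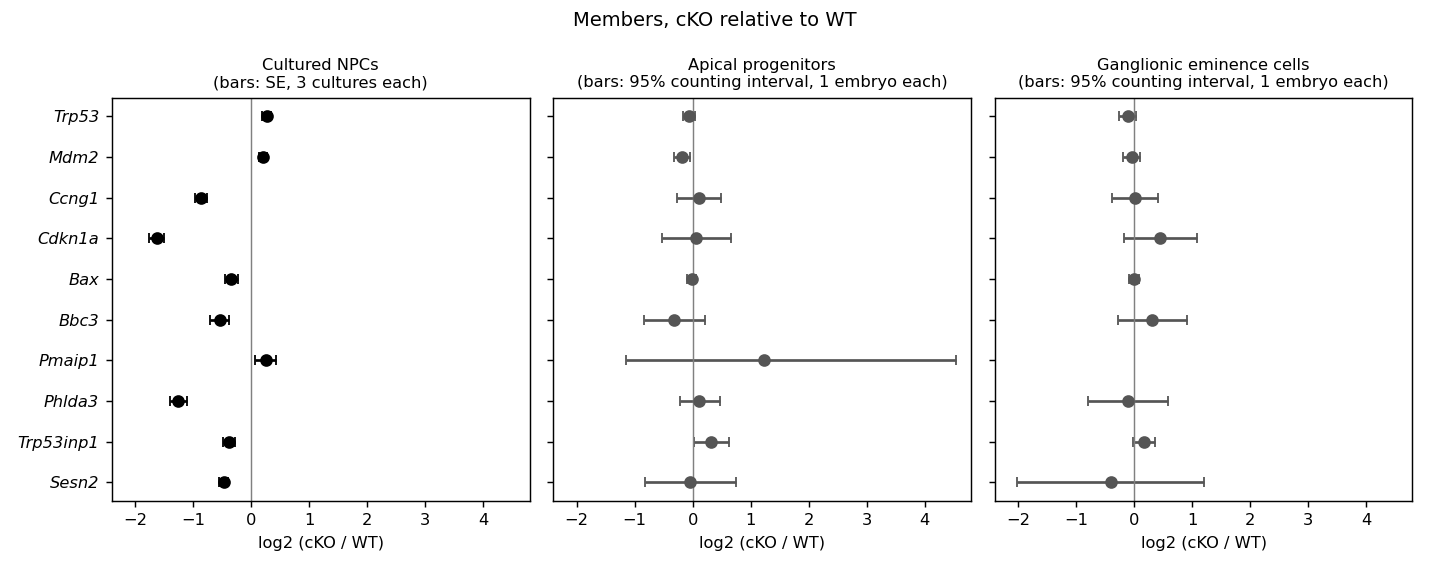
Log2 of cKO over WT (horizontal axis) of each gene in the cultures (bars: SE, 3 cultures per genotype) and in AP-like and GE-like cells of the cortex (bars: 95% counting interval, 1 embryo per genotype). Ccng1 lies at -0.87 in the cultures and at 0.11 in AP-like cells; Pmaip1 has no point in GE-like cells because the cKO library had 0 UMIs there.

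GE-like cells, in which Emx1 is low (6.14 and 4.78 CPM, against 35.3 and 27.2 CPM in AP-like cells), are given for comparison, although Syncrip itself was lower in cKO there (-0.21, -0.28 to -0.14) and level in AP-like cells (0.04, -0.02 to 0.10). There were 1193 of them in WT and 1643 in cKO. Of the 5 genes with at least 200 UMIs, 0 had an interval above 0 and 0 below, against 11.6% and 11% of 9823 genes. Cdkn1a had 3.26 and 4.43 CPM there (0.44, -0.18 to 1.08) and Trp53 62.5 and 58.0 CPM (-0.11, -0.26 to 0.04).

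Some genes of the other lists had intervals apart from 0 in AP-like cells. Over all 10308 genes with at least 200 UMIs there, 14.6% lay above 0 and 15.4% below. Of 29 further p53 targets 18 had enough UMIs, of which 2 lay above 0 (Trp53i11 0.22, Btg1 0.07) and 1 below (Btg2 -0.30, at 255 and 206 CPM). Of 16 genes that control p53, 0 lay above and 4 below 0 (Chek2 -0.26, Atr -0.22, Rpl5 -0.12, Rpl11 -0.03). In the BCL2 family 1 of 8 lay below 0 (Bcl2l11), among caspases and genes of mitochondrial release 2 of 12 above (among them Cycs at 0.11), and in the integrated stress response 2 of 9 above (Atf4 0.26, Cebpg 0.24) and 1 below (Phgdh -0.14).

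Several groups differed between the AP-like cells of the embryos, and their part in the ratios above was not tested. All 10 neuronal genes lay above 0, with a sum of 723 CPM (WT) and 916 CPM (cKO), and all 4 genes of red blood cells with enough UMIs lay above 0, at 75.1 and 95.3 CPM. Immediate early genes, higher in the cKO cultures, were lower here: 4 of 4 lay below 0, with a sum of 276 CPM (WT) and 186 CPM (cKO). Of the 12 G2/M genes 7 lay below and 2 above 0. Astrocyte genes had 1 above and 2 below of 4, those of the oligodendrocyte lineage 0 and 0 of 2, and no vascular or microglial gene had enough UMIs.

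Along the neuronal lineage Bbc3, Trp53, Bax and Trp53inp1 had intervals below 0 in some classes. In immature-neuron-like cells, 2149 in WT and 2277 in cKO, Bbc3 had 19.3 and 14 CPM, from 651 and 478 UMIs (-0.46, -0.63 to -0.29). Of 6 genes with at least 200 UMIs there, 0 had intervals above 0 and 3 below, Trp53 (-0.18), Bax (-0.07) and Bbc3, against 15.1% and 18.9% of 11262 genes. In migrating-neuron-like cells Bax (-0.19, -0.26 to -0.11) and Trp53inp1 (-0.18, -0.31 to -0.05) lay below 0, which is 2 of 6 with 0 above, against 15.4% below and 14.8% above of 9332 genes. The difference of Trp53inp1 lay in cluster 12, with 129 WT and 464 cKO cells (89.2 and 55.3 CPM, -0.69, -1.01 to -0.37), and not in cluster 0, with 892 and 874 cells (75.2 and 73.5 CPM, -0.03, -0.18 to 0.11). In IP-like cells 1 of 4 genes lay below 0 and 0 above, against 10.6% and 11.3% of 8488 genes. It was Trp53inp1 (58.1 and 49.9 CPM, -0.22, -0.42 to -0.02), and after called doublets were removed its interval included 0 (-0.12, -0.34 to 0.11).

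The ratios of Cdkn1a in IP-like and immature-neuron-like cells rested in part on single cells. In IP-like cells WT had 5.39 CPM and cKO 2.35 CPM (-1.2, -2.06 to -0.38), but 34 of the 41 WT UMIs came from 1 cell. Without the cell with the most Cdkn1a UMIs in each library, 7 and 14 UMIs were left and the ratio turned to 0.92 (-0.49 to 2.47). In immature-neuron-like cells Cdkn1a had 1.75 and 2.85 CPM (0.70, 0.22 to 1.2), and 17 of the 97 cKO UMIs came from 1 cell, without which the ratio was 0.48 (-0.03 to 0.99). In AP-like cells the ratio without the top cells was 0.46 (-0.27 to 1.23).

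Summed over all cells, Cdkn1a differed by less than counting error between the embryos, at 4.99 CPM in each (0.00, -0.18 to 0.18). Bbc3 was lower in cKO at 11.4 and 8.61 CPM (-0.41, -0.53 to -0.28), Trp53inp1 at 48.7 and 43.3 CPM (-0.17, -0.23 to -0.11) and Phlda3 higher at 3.92 and 4.67 CPM (0.25, 0.06 to 0.45). Trp53 (-0.10), Bax (-0.08) and Mdm2 (-0.06) lay slightly below 0. In all, 5 of 9 genes lay below 0 and 1 above, against 20.8% and 24.5% of 14289 genes. These sums also move with the share of each class, which differed between the libraries: AP-like cells were 9.28% of WT and 11.5% of cKO cells. For Phlda3 the only named class with an interval above 0 was fibroblast-like cells of the meninges, from 10 and 45 UMIs (1.40, 0.39 to 2.55).

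Cdkn1a differed strongly between cell classes in both embryos. Endothelial-like cells had 132 CPM (WT) and 115 CPM (cKO), Cajal-Retzius-like cells 83.2 and 82.4 CPM, and microglia-like cells 23.6 and 36.7 CPM, against 3.43 and 3.58 CPM in AP-like cells. On the log2 scale, Cajal-Retzius-like cells, early-born neurons that leave the cycle for good, exceeded AP-like cells by 4.60 (4.03 to 5.18) in WT and 4.52 (4.06 to 4.99) in cKO. The 87 WT and 143 cKO cells of the endothelial-like and Cajal-Retzius-like classes held 46.9% and 41.1% of all Cdkn1a UMIs, with 2.09% and 2.10% of all UMIs. With each cell thinned to 5000 UMIs, a Cdkn1a UMI was seen in 26.2% of 42 and 36.0% of 75 Cajal-Retzius-like cells and in 34.8% of 23 and 30.3% of 33 endothelial-like cells that were deep enough. In AP-like cells the share was 0.679% (exact interval 0.221% to 1.58%) in WT and 1.11% (0.576% to 1.93%) in cKO, with intervals that overlapped those of migrating-neuron-like cells, at 1.12% (0.561% to 2.00%) and 0.559% (0.225% to 1.15%) with medians of 11169 and 10371.5 UMIs before thinning. In CPM, migrating-neuron-like cells lay below AP-like cells beyond counting error in cKO (-1.47, -2.29 to -0.71) and not in WT (-0.59, -1.35 to 0.14). Of the 65 UMIs of the cKO AP-like cells, 16 came from 1 cell. Because the intervals of the shares overlapped, no difference between these classes is read from the shares. A background level was not measured, so expression above it is not read from them either. Before thinning, 2.62% and 2.83% of AP-like cells had a Cdkn1a UMI.

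**Figure D5:**
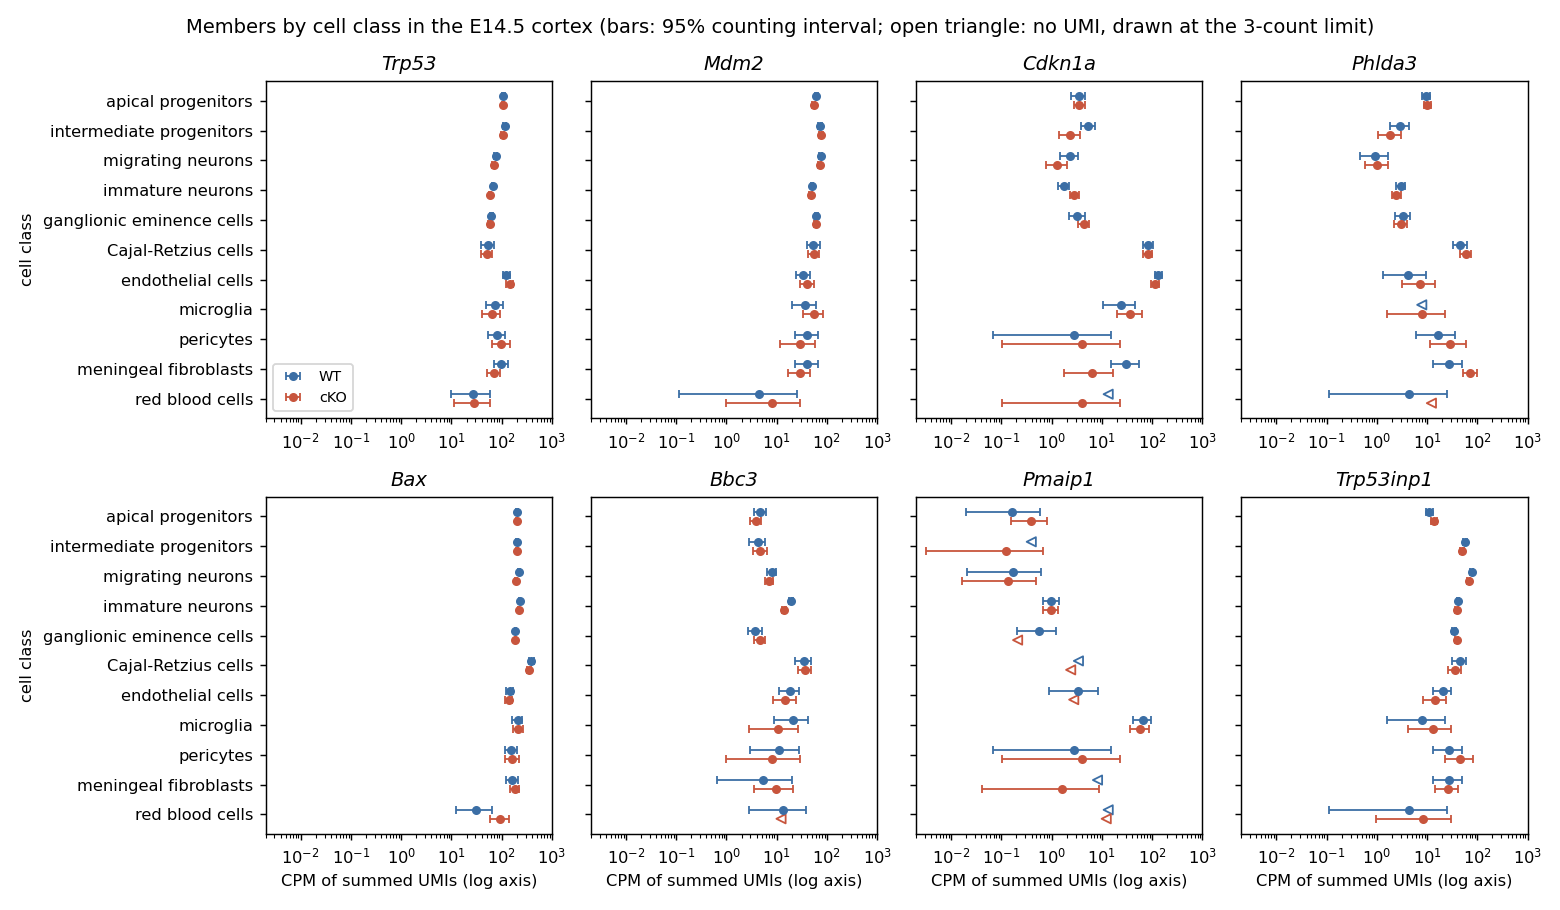
Level of 8 of the genes in CPM of summed UMIs (horizontal log axis) in each cell class, WT and cKO side by side, with 95% counting intervals; open triangles mark classes with 0 UMIs, drawn at the limit of 3 counts. Cdkn1a peaks in endothelial-like and Cajal-Retzius-like cells, Pmaip1 in microglia-like cells, and Trp53inp1 is lowest among the neural classes in AP-like cells at 11.1 and 13.9 CPM.

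Cajal-Retzius-like cells, 63 in WT and 110 in cKO, were highest for Bax, Bbc3 and Ccng1. Bax had 386 and 345 CPM there, Bbc3 34.2 and 36.0 CPM and Ccng1 30.8 and 27.2 CPM. For Bax and Bbc3 the next class, immature-neuron-like cells, was lower beyond counting error in both libraries. Phlda3 had 45.6 and 58.4 CPM in this class and 27.3 and 72.1 CPM in fibroblast-like cells of the meninges, and these classes were not separated in both libraries. Trp53 itself had 52.4 and 50.4 CPM in Cajal-Retzius-like cells, below AP-like cells beyond counting error in both libraries. Trp73, a relative of p53, was among the genes most raised in this class, and its part in these levels was not tested. Of the 42 WT and 75 cKO Cajal-Retzius-like cells with at least 5000 UMIs, thinned to that number, 47.6% and 45.3% had UMIs of at least 3 of the 10 genes, against 12.5% and 11.6% of AP-like cells and 16.2% and 14.4% of all cells. In microglia-like cells these shares were 31.6% of 19 and 35.3% of 17. The intervals of microglia-like, pericyte-like and meningeal fibroblast-like cells overlapped those of Cajal-Retzius-like cells in both libraries. Thinned to 3000 UMIs, the shares were 20% of 50 and 20.9% of 86 Cajal-Retzius-like cells, and 3.88% and 3.58% of AP-like cells.

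Other members had their own order of classes. Trp53 was highest in endothelial-like (123 and 143 CPM), IP-like (114 and 105 CPM) and AP-like cells, without separation among them in both libraries, and lowest in cells like red blood cells (26.7 and 28.5 CPM). Mdm2 was highest in IP-like (72.1 and 75.8 CPM) and migrating-neuron-like cells (75.1 and 71.6 CPM), which did not differ beyond counting error, and the latter exceeded GE-like cells in both libraries. Trp53inp1 went from 11.1 and 13.9 CPM in AP-like cells to 58.1 and 49.9 CPM in IP-like and 76.8 and 67.7 CPM in migrating-neuron-like cells. Each of these steps lay beyond counting error in both libraries. In immature-neuron-like cells Trp53inp1 was lower again, at 40.8 and 38.6 CPM. Phlda3 went from 9.40 and 10.2 CPM in AP-like cells to 2.89 and 1.86 CPM in IP-like and 0.928 and 1.02 CPM in migrating-neuron-like cells. In immature-neuron-like cells it had 3.02 and 2.46 CPM. All of these classes lay below AP-like cells beyond counting error in both libraries. Pmaip1 was near 0 except in microglia-like cells, with 65.4 and 57.7 CPM from 25 and 22 UMIs. Sesn2 was at most 12.9 CPM in any class.

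The genes whose levels over the classes were most like those of each member are given as a description over 22 sums of class and library, which share their library and depth. Cdkn1a was most like Pdgfb (Pearson r = 0.90), Gas6 and Ets2, Trp53 like Btg3 (0.94), Mdm2 like Pum2 (0.98), Bax like Aatf (0.98), Ccng1 like Tmem30a (0.94), Bbc3 like Gpr137 (0.81), Phlda3 like Dkk3 (0.86) and Trp53inp1 like Cyth2 (0.95). Pmaip1 and Sesn2 had too few UMIs for this.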

How the data were processed

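The deposited RNA-seq table holds raw counts per gene for 6 cultures, which the authors made from reads aligned with HISAT2 to mm10. For the counting program, annotation and strand setting, nothing is stated in the sources at hand. The deposited scRNA-seq matrices hold UMI counts per cell, which the authors made with Cell Ranger 7.0.0.

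The members and gene lists were chosen with earlier results of these data known. In the cultures, genes kept by filterByExpr were scaled by TMM and tested with the quasi-likelihood test of edgeR 4.0.16 in R 4.3.3, with a Benjamini-Hochberg adjusted p below 0.05. DESeq2 1.42.0 and limma 3.58.1 were alternatives. From each list the text names up to 3 called genes per direction with the largest change among those whose cultures do not overlap, at a mean of at least 1 CPM, and for lists of other cells at most the 2 largest, while list genes named in the cortex are those whose interval excluded 0. Exon lengths come from GENCODE M21.

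Cells with fewer than 200 genes or over 10% of UMIs from mitochondrial genes were dropped. The rest were clustered at resolution 0.8 with Seurat 5.3.0 from 2000 variable genes, over 30 components and 20 neighbours. The members were kept out of these genes. So were the lists of other p53 targets, genes that control p53, the BCL2 family, caspases and the integrated stress response. Immediate early genes, G2/M genes and the lists of other cells were not kept out. Doublets called by Scrublet in scanpy 1.11.5, 308 WT and 451 cKO cells, were kept, and their removal was an alternative. Intervals and limits cover counting error only. Same-numbered cultures were not taken as pairs, since the deviations of 1 of the 3 pairs correlated below 0. LACE-seq was not analysed here. Single values of some list genes are not reported here.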

Additional observations from a re-analysis of the deposited data

How the results depend on the processing

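No member changed direction in the cultures under the 14 other settings, and 125 of 140 values kept their side of the threshold, the other 15 losing the call. Members called higher were 1 under DESeq2 and without the low-count filter. Among lists, genes that control p53 called lower were 2 under DESeq2 and with sex as a covariate, BCL2 genes called higher were 2 with the replicate block and with sex, and stress response genes called higher were 3 without the filter, under DESeq2 and with sex. With the replicate block, 2 members were higher, 7 lower and 5 BCL2 genes lower, and 6405 genes in all were called against 5701. Same-numbered cultures correlated at 0.26, -0.05 and 0.12, and not every culture correlated best with its own number.

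With 1 culture left out, members called higher ran from 0 to 2 (0 without cKO culture 2 or 3) and lower from 5 to 7, all genes called from 4108 to 6345, genes that control p53 from 4 to 8 higher and 1 to 2 lower, BCL2 genes from 1 to 2 higher and 2 to 4 lower, caspases from 1 to 2 higher and 1 to 3 lower, and stress response genes from 3 to 4 higher and 4 to 7 lower. The cause was not tested.

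In the cortex 284 of 288 ratios moved by less than their interval, while 62 of 120 shares of cells moved by more, 43 of them without thinning and 19 when thinned to 3000 UMIs. Leaving out the top cell, a setting chosen after seeing the data, turned Cdkn1a in IP-like cells from -1.2 to 0.92, since 34 of 41 WT UMIs lay in that cell. Removing doublets left 0 members above 0 in AP-like cells. Pmaip1 and Sesn2 are limited by depth.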
